A study of Rattus norvegicus with 8 samples.

Results

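The BCL2 family decides whether a cell's mitochondria release the factors that start apoptosis, and 10 of its genes were sought in the livers of rats given hydrogen water: the anti-apoptotic Bcl2a1, Bcl2, Bcl2l1 and Mcl1, and the pro-apoptotic Bax, Bak1, Bid, Bcl2l11, Bad and Bbc3. Every probe set that the platform annotation assigns to a single one of these symbols was taken, which gave 15 of 31099 probe sets for 9 of the 10 genes. Bax has no probe set with a single symbol and was not analysed here. Bcl2a1 was picked because its signal had been found lower in this same comparison and the other genes because they belong to the family. The differences of these genes between the groups are therefore given as a description, and no test of them is used as support.

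The animals were male Sprague-Dawley rats, an outbred strain, housed from 4 weeks of age and 8 weeks old at the end. For 4 weeks the control group drank sterilized distilled water, and the other group drank hydrogen water, which holds dissolved molecular hydrogen at 0.7 mM. The study kept 8 animals per group, and 4 arrays of whole liver RNA per group were analysed. The labels do not tie an array to an animal or say whether RNA was pooled, so errors measure the spread between these arrays, and their number limits the precision.

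Proteins of the family share short BCL2 homology regions. The guardians, Bcl2, Bcl2l1 (BCL-XL), Mcl1 and Bcl2a1 (also called A1 or BFL1), hold the pore formers Bax and Bak1 in check at the outer mitochondrial membrane. The BH3-only proteins Bid, Bcl2l11 (BIM), Bad and Bbc3 (PUMA) oppose the guardians or activate the pore formers. Hepatocytes are known to depend on Bcl2l1 and Mcl1, whereas Bcl2a1 is best known from white blood cells and endothelium, as a target of the inflammatory factor NF-kappaB.

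Deposited signals carried no common scale, with array medians from 17.2 to 26.8 and 2% trimmed means from 80.8 to 132, the 2 brightest arrays both being controls. Signals below are quantile-normalized, which gives each array the same distribution, and their median was 20.8. Detection calls were not used here, so a signal under that median cannot be told from background. Each of the 7 hepatocyte markers with a named probe set (Alb, Apoa1, Ttr, Serpina1, Cps1, Hnf4a and Cyp2e1) was bright, with a summed signal of 50489 to 55214 in controls and 53112 to 54674 with hydrogen water. Because probe sets differ in how strongly they bind, no gene's level was set against another's, and only differences between arrays are compared.

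Bcl2a1 and Bcl2l11 stood furthest apart between the groups among these genes, in opposite directions. Bcl2a1, a guardian, was 2.43-fold lower with hydrogen water, and Bcl2l11, a BH3-only activator, was 2.88-fold higher at its brightest probe set. The stretches around their start sites, from 250 bases before to 50 after, are shown because these genes carry the largest differences. They come from RefSeq, assembly GRCr8, and lie at chr8:98596556-98596855 (Bcl2a1, plus strand) and chr3:135819792-135820091 (Bcl2l11, plus strand), each written 5′ to 3′ with motif matches in capitals.
Bcl2a1: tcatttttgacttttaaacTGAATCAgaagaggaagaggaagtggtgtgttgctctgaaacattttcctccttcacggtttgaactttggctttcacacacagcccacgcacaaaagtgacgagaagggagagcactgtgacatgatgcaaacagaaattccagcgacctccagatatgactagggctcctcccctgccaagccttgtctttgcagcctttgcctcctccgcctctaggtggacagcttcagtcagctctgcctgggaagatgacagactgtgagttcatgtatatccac
Bcl2l11: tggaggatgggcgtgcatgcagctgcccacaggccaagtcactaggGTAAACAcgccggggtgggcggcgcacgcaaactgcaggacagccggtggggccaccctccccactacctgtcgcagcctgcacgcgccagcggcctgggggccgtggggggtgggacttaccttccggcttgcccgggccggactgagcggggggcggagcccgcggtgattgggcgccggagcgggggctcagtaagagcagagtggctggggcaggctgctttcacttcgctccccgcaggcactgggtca

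Both strands were searched for 4 motifs: GTAAACA (forkhead factors of the FOXO class), TTCNNNGAA (STAT factors), TGANTCA (AP-1) and the NF-kappaB consensus. The AP-1 letters were searched loosely, with any base allowed at the centre. The Bcl2a1 window held 1 match, TGAATCA, to these loose AP-1 letters. Its central base is A, and its first base lies at -231 from the start site. The Bcl2l11 window held 1 match, to FOXO, at -204. Of all 33469 windows of the same length, 7.33% held the loose AP-1 letters, 3.78% the FOXO motif, 8.87% the STAT motif and 7.51% the NF-kappaB motif. A match of letters is a description and not a site of binding, and the lack of one says only that these letters are not in the window.

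**Figure D1:**
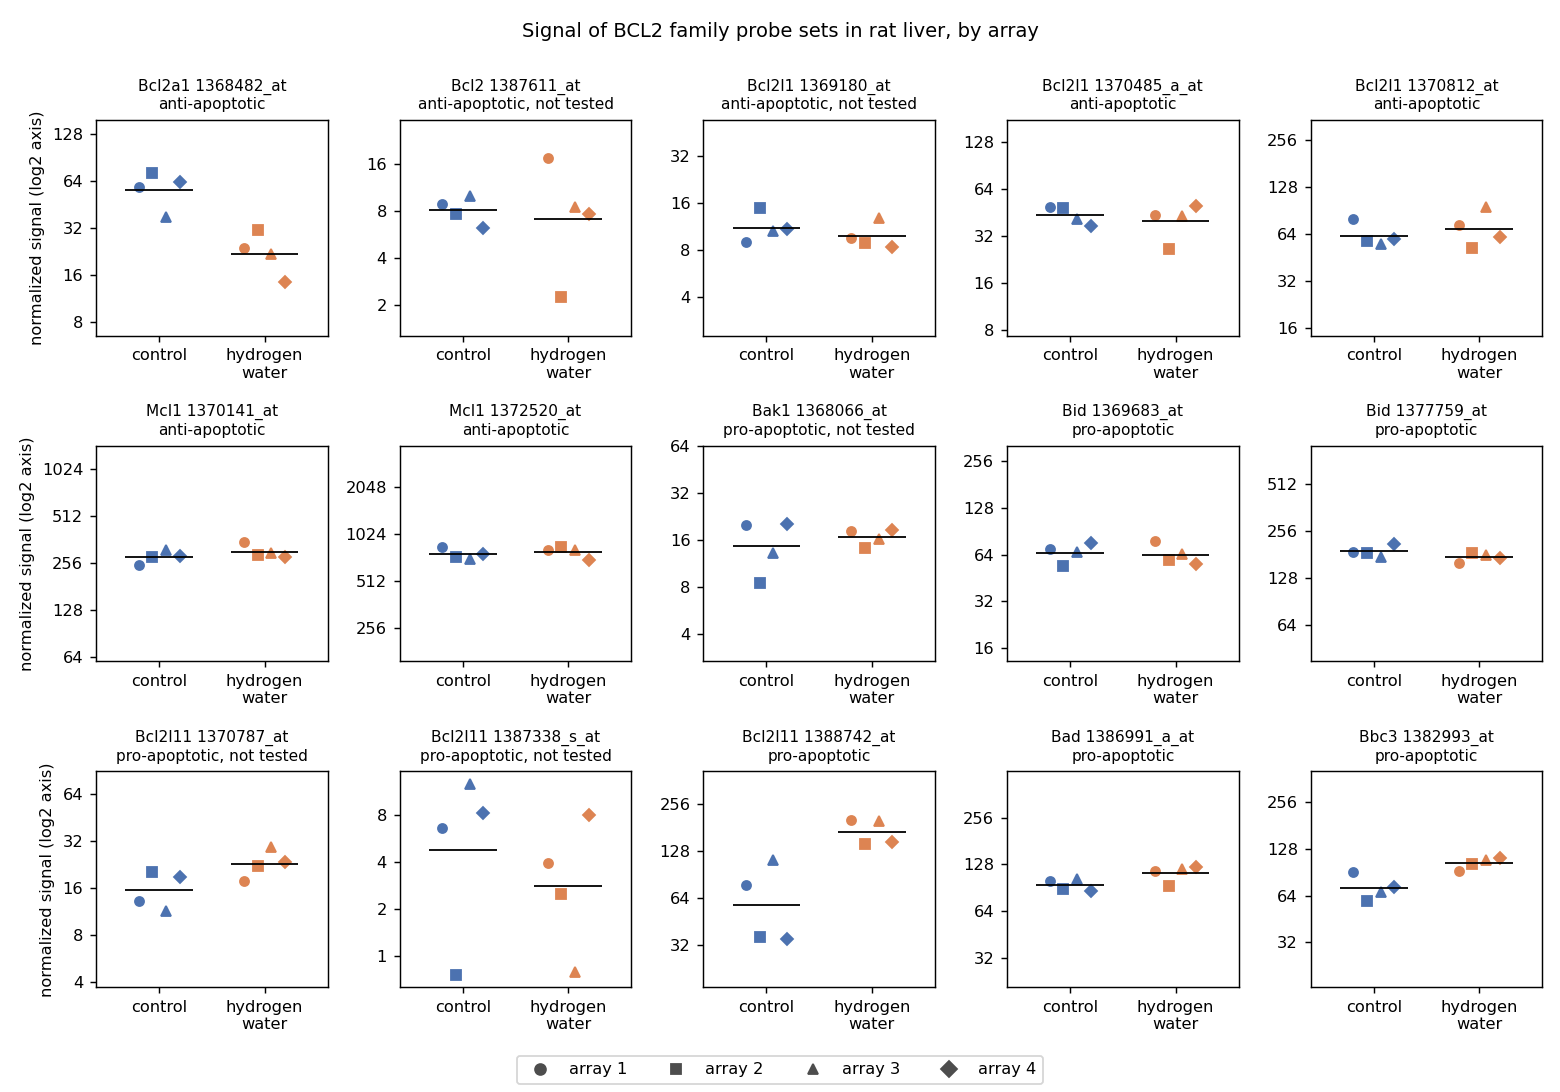
Normalized signal on a log2 axis for the 15 BCL2 family probe sets, with 1 point per array (4 control in blue, 4 hydrogen water in orange, symbols giving the replicate number of the label) and a bar at the geometric mean of each group. Each panel spans the same fold range, and the groups are fully apart for Bcl2a1, for Bcl2l11 at 1388742_at and for Bbc3.

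Among the guardians, Bcl2a1 had signals of 58.6, 71.8, 37.5 and 62.9 on the control arrays. With hydrogen water they were 23.6, 31.2, 21.7 and 14.3. All 4 treated arrays lay below the lowest control array, and the lowest of them fell under the median of all signals, 20.8. Treated arrays 1 and 3, at 23.6 and 21.7, lay just above that median, so the size of the fold is uncertain. On the log2 scale, after a pseudocount of 2.05 was added, Bcl2a1 went from 5.86 ± 0.39 to 4.59 ± 0.42 (SD, n = 4 each), a difference of −1.28 ± 0.25 (SE). The groups stayed apart in the deposited values too, at 46.2 to 76.6 in controls against 13.8 to 29.5.

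Mcl1, a short-lived guardian, had signals of 713 to 843 in controls and 699 to 851 with hydrogen water at 1372520_at. The ranges lay almost on top of each other, and the difference was 0.06 ± 0.09 (SE) on the log2 scale. Its other probe set, 1370141_at, gave 247 to 310 against 279 to 349 and a difference of 0.11 ± 0.11. Both differences turned negative when arrays were left without normalization, at −0.26 and −0.23.

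Bcl2l1 had 3 probe sets, and none separated the groups. At 1370812_at the control arrays gave 79.6, 58.0, 55.3 and 58.9 and the treated arrays 73.0, 51.9, 94.6 and 61.3. The highest and the lowest of these 8 signals both came from treated arrays, and the difference was 0.13 ± 0.19 (SE). At 1370485_a_at it was −0.12 ± 0.20, so the 2 brighter probe sets of Bcl2l1 differed in sign, and the third, 1369180_at, stayed under the median signal on all 8 arrays (−0.16 ± 0.32). Bcl2, the founding member, had its lowest and its highest signal, 2.2 and 17.5, on treated arrays. It was also under the median on all 8 arrays, and its log2 difference of −0.08 ± 0.46 carries no direction.

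Among the BH3-only genes, Bcl2l11 had signals of 77.7, 36.3, 111.9 and 35.3 on the control arrays at 1388742_at. The treated arrays gave 203.5, 143.6, 199.8 and 145.9. Control arrays 2 and 4 sat far below control arrays 1 and 3, and all 4 treated arrays lay above every control. The log2 signal went from 5.91 ± 0.80 to 7.43 ± 0.27 (SD, n = 4 each), a difference of 1.53 ± 0.33 (SE), and the spread between controls was the larger one. In the deposited values the ranges met, at 32.9 to 141.5 in controls and 135.1 to 161.1 with hydrogen water.

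The other probe sets of Bcl2l11 were dim and did not point one way. At 1370787_at, 3 of 4 treated arrays lay above the highest control, and the difference was 0.50 ± 0.28 (SE). At 1387338_s_at, which can bind several transcripts, signals ran from 0.8 to 12.7 in controls and from 0.8 to 8.0 with hydrogen water, and the difference was −0.56 ± 0.56. The statement on Bcl2l11 therefore rests on 1 of its 3 probe sets.

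Bbc3, which p53 and FOXO factors are known to induce, gave signals of 90.6, 59.3, 67.2 and 72.6 on control arrays. It gave 92.6, 102.7, 108.2 and 111.8 with hydrogen water. The groups did not overlap, although control array 1 came within a few units of treated array 1. The log2 difference was 0.52 ± 0.14 (SE), a 1.44-fold higher signal. Without normalization it was 0.17 ± 0.23, and in the deposited values the groups overlapped, at 54.0 to 116.7 against 70.2 to 111.1.

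Bad, a BH3-only protein held inactive by growth factor signalling, ranged from 86.1 to 103.0 in controls and from 92.9 to 123.0 with hydrogen water. Here 3 of 4 treated arrays lay above all controls, and the difference of 0.25 ± 0.13 (SE) became −0.11 without normalization. Bid, which carries the signal of death receptors to mitochondria, was at 175 to 210 against 159 to 183 at its brighter probe set, 1377759_at, with a difference of −0.12 ± 0.10. Its second probe set, 1369683_at, gave −0.04 ± 0.15, and the groups overlapped at both. The pore former Bak1 was under the median signal on all 8 arrays, at 8.5 to 20.3 and 14.1 to 18.6, with a difference of 0.16 ± 0.32.

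**Figure D2:**
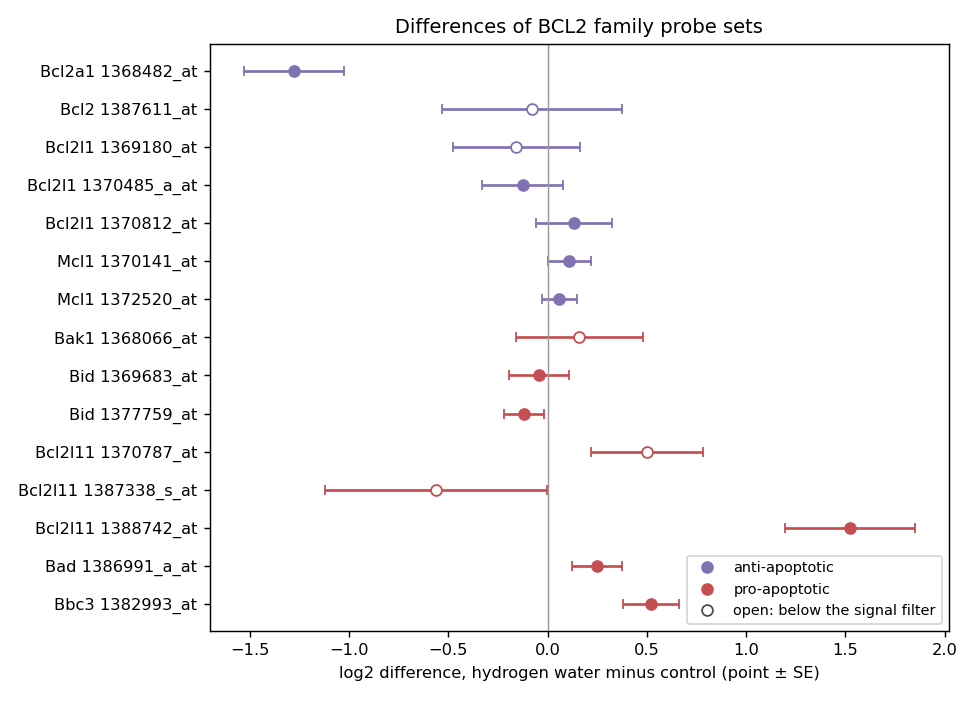
Log2 difference between hydrogen water and control for each BCL2 family probe set, with its SE (n = 4 arrays per group); guardians are purple, pro-apoptotic genes red, and open points are the 5 probe sets below the signal filter. Bcl2a1 at −1.28 and Bcl2l11 1388742_at at 1.53 lie far outside the other points above the filter, which run from −0.12 to 0.52.

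Of the 15 probe sets, 10, for 7 genes, had a mean signal in the upper part of all probe sets and entered the limma fit of 15521 probe sets, while both remaining genes, Bcl2 and Bak1, did not. Of these 10, 1 probe set, Bcl2a1, passed an adjusted p of 0.05 in limma, beside 0.818% of all tested probe sets. The groups did not overlap at 3 of the 10, beside 7.48% of all tested probe sets. Bcl2a1 was chosen from this very comparison, so nothing is read from either count. The median log2 difference of the 10 was 0.08, and the median size of a difference, whatever its sign, was 0.13, the same as the 0.13 over all tested probe sets. Below 0 lay 4 of the 10, beside 50.2% of all tested probe sets.

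To set guardians against killers, each gene's brightest probe set was taken relative to its control mean and averaged over the 4 anti-apoptotic and the 5 pro-apoptotic genes on each array. The anti-apoptotic mean was 0.02, −0.54, −0.14 and −0.51 on the 4 treated arrays, relative to a control mean of 0, with control arrays from −0.14 to 0.16. The pro-apoptotic mean was 0.49, 0.33, 0.55 and 0.50, above all control arrays, which ran from −0.34 to 0.24. The anti-apoptotic mean overlapped between the groups, and the pro-apoptotic mean did not.

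Their difference, anti minus pro, was −0.08, 0.37, −0.28 and −0.01 on control arrays. It was −0.47, −0.87, −0.69 and −1.004 with hydrogen water. No treated array reached the lowest control, and the groups differed by −0.76 ± 0.18 (SE over arrays, n = 4 each). Because Bcl2a1 was picked for its lower signal here, part of this difference was set by that choice. Being a difference within an array, anti minus pro cannot move when all log2 signals of an array shift by a constant. It was therefore the same, −0.71, without normalization, under median centring and under spike-in scaling. It was −0.76 under cyclic loess and −0.72 under trimmed-mean scaling. It rested largely on 2 genes: without Bcl2a1 it was −0.43 ± 0.18, without Bcl2l11 −0.49 ± 0.18, and without both −0.16 ± 0.20. The groups overlapped in each of these 3 cases. Without Bcl2a1, treated array 1 was at −0.07, above control array 3 at −0.15 and control array 4 at −0.08. With the mean of all probe sets of a gene in place of the brightest it was −0.60 ± 0.20. With only the genes past the signal filter, 3 anti-apoptotic and 4 pro-apoptotic, it was −0.91 ± 0.20.

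**Figure D3:**
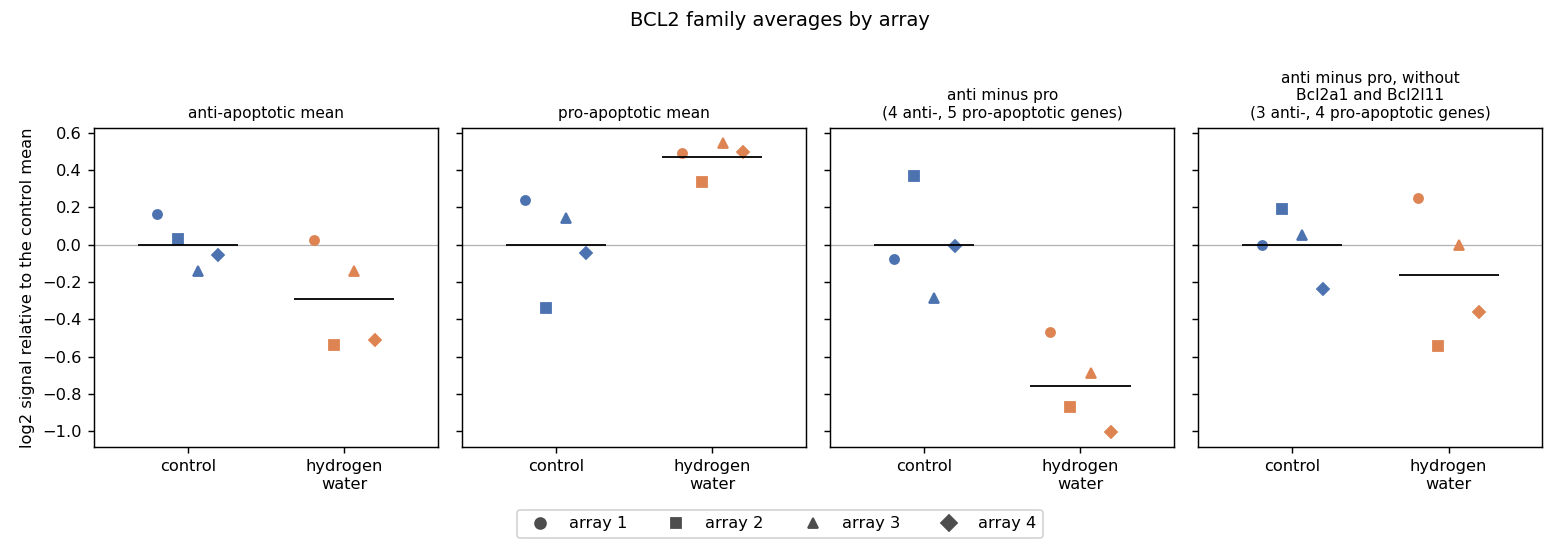
Mean log2 signal of anti-apoptotic and pro-apoptotic genes relative to the control mean, and their difference with and without Bcl2a1 and Bcl2l11, with 1 point per array, symbols for the replicate number and a bar at the group mean. The difference is lower on all 4 treated arrays (group difference −0.76), and the groups overlap in the last panel, without Bcl2a1 and Bcl2l11 (−0.16), as they do without either gene alone.

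In bulk liver, fewer cells of a type and less RNA per cell cannot be told apart. Bcl2a1 is best known from white blood cells and endothelium, so marker levels are given beside it. Which liver cells carry its signal was not measured. Of 8 pan-leukocyte markers 7 were bright enough to be tested, and 0 passed in limma while 1 reached an unadjusted p under 0.05. Their summed signal was 713 to 960 in controls and 738 to 873 with hydrogen water. Of the 7 tested, 5 lay below 0, as Bcl2a1 did, and 2 above, with a median of −0.07. Of all tested probe sets 50.2% lay below 0, and of all genes tested 0.857% passed and 12.2% had an unadjusted p under 0.05. Lcp1, an actin-bundling protein of leukocytes, differed by −0.41 ± 0.13 (SE; adjusted p = 0.206 in limma), and its groups did not overlap. Laptm5 differed by −0.17 ± 0.15, the integrin Itgb2 by −0.16 ± 0.22, Coro1a by −0.07 ± 0.22 and Arhgdib by −0.02 ± 0.11, against 0.08 ± 0.19 for Ptprc (CD45) and 0.04 ± 0.13 for Cd53. Of 10 macrophage markers 0 passed, with 2 at an unadjusted p under 0.05, with sums of 4559 to 5932 and 5004 to 5631. The monocyte and macrophage receptor Cd14 differed by 0.27 ± 0.08 and lysozyme (Lyz2) by −0.41 ± 0.15, in opposite directions.

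For neutrophils, where Bcl2a1 is abundant, 5 of the 7 measured markers (S100a8, Csf3r, Cxcr2, Ncf1 and Camp) had a mean under the median signal. Low signal does not measure how many of these cells were there. The list's sum was 123 to 184 in controls against 155 to 211. Its 2 tested markers both lay above 0, with a median of 0.20. Of 10 lymphocyte markers, 9 were under the median signal, with sums of 118 to 183 and 124 to 149. The sums of endothelial markers were 2190 to 2430 and 2383 to 2719. Of 7 tested endothelial markers 0 passed in limma, and 2 reached an unadjusted p under 0.05. Below 0 lay 3 of them and above 0 lay 4. Over these lists and those for hepatocytes, stellate cells, cholangiocytes and erythroid cells, 0 of 45 tested markers passed the limma threshold. Over all genes tested, 0.857% passed. At an unadjusted p under 0.05 there were 5 of the 45, beside 12.2% of all genes. The part of these cells in the difference of Bcl2a1 was not tested.

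The wider apoptosis machinery was followed through 6 lists from general knowledge, chosen with earlier results of these data known. Their p-values are therefore given as a description and are no independent test. Of their 85 genes, 73 were named on the array and 63 were bright enough to be tested. One of the 63 passed the limma threshold, beside 0.857% of all 9106 genes tested. It was Xiap, which blocks caspases directly, and it fell with hydrogen water. In all, 11 of the 63 had an unadjusted p under 0.05, beside 12.2% of all genes, and the lists' median difference was 0.00, as it was over all genes.

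Xiap belongs to the inhibitor of apoptosis proteins, which bind caspases or tag signalling complexes with ubiquitin. Its brighter probe set gave signals of 346, 345, 423 and 386 on control arrays. With hydrogen water it gave 217, 254, 212 and 196. The groups were far apart, and Xiap was 1.70-fold lower, a log2 difference of −0.77 ± 0.11 (SE; adjusted p = 0.012 in limma) seen on 4 of 4 treated arrays. Its adjusted p stayed between 0.0041 and 0.0444 over 19 other fits, so it passed in each of them.

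The second Xiap probe set, 1369248_a_at, gave 134, 106, 134 and 127 on control arrays and 60.3, 80.1, 27.2 and 40.0 with hydrogen water. Its groups did not overlap either, and its difference of −1.34 ± 0.27 (SE) missed the threshold (adjusted p = 0.051 in limma). Birc2, the ubiquitin ligase cIAP1, had signals of 420, 401, 256 and 435 against 299, 171, 185 and 198. Control array 3 lay below treated array 1, and the difference of −0.83 ± 0.20 did not pass (adjusted p = 0.092), although it passed in 4 of the 19 other fits. Birc3, or cIAP2, also a target of NF-kappaB, gave 46.6 to 62.8 against 20.9 to 43.3, a difference of −0.55 ± 0.23 that did not pass (adjusted p = 0.353). The 3 tested genes of this list thus had a median difference of −0.77, and the sum of its 4 measured genes was 736 to 879 in controls and 442 to 539 with hydrogen water; the fourth, Birc5 (survivin), was under the median signal.

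**Figure D4:**
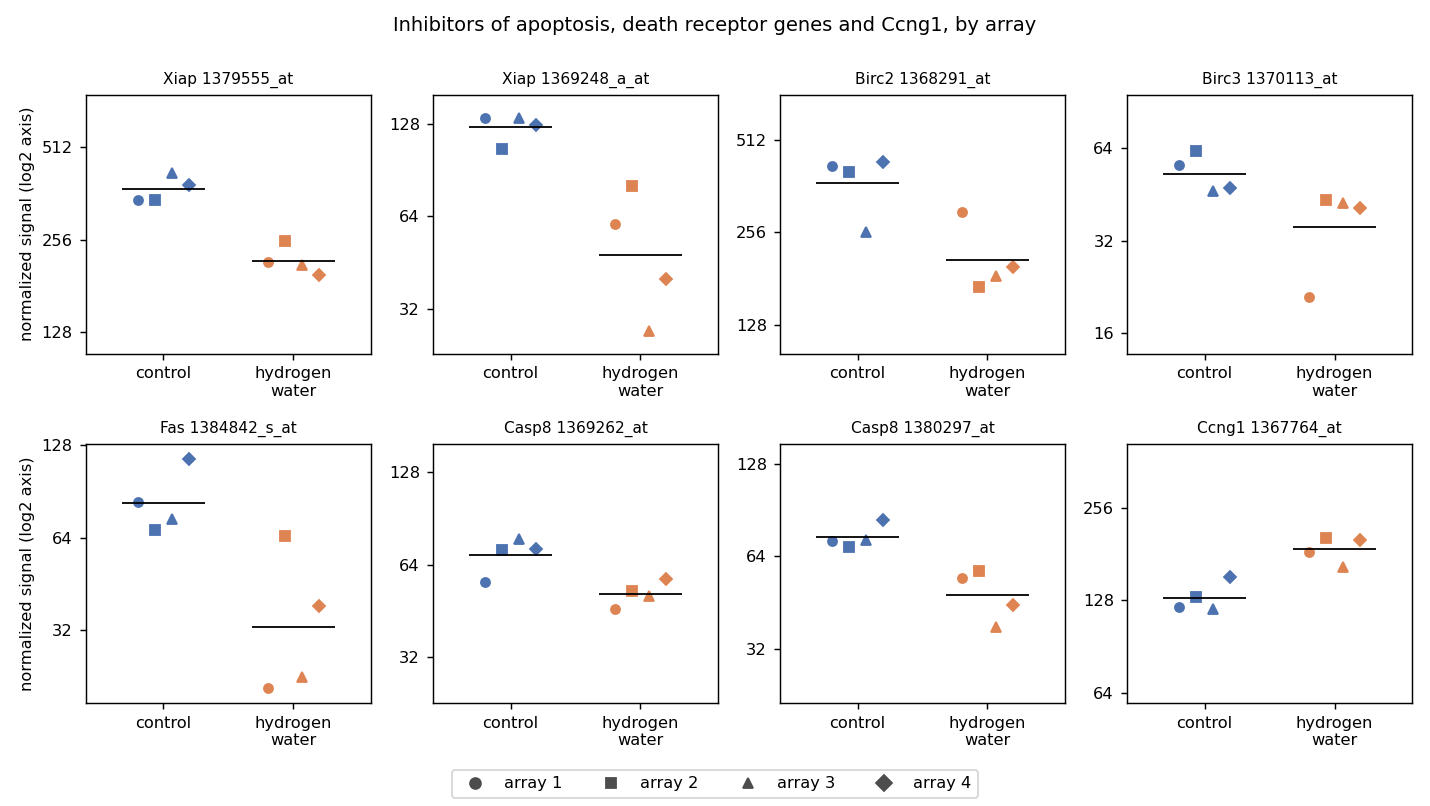
Normalized signal on a log2 axis, with the same fold range in each panel, for inhibitors of apoptosis (Xiap, Birc2, Birc3), death receptor genes (Fas, Casp8) and the p53 target Ccng1, with 1 point per array and a bar at the geometric mean of each group. Both Xiap probe sets are lower on all 4 treated arrays, and the first of them alone passed the threshold (adjusted p = 0.012 in limma).

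Among 10 tested death receptor genes the limma threshold was reached by 0 and an unadjusted p under 0.05 by 3. Over all genes tested, 0.857% reached the limma threshold and 12.2% an unadjusted p under 0.05. Of the 10, 8 lay below 0, beside 50.2% of all tested probe sets, and their median was −0.17. The death receptor Fas gave 83.3, 67.7, 73.7 and 115.2 in controls at its brightest probe set, which can bind several transcripts, and 20.7, 65.0, 22.5 and 38.5 with hydrogen water. The groups did not overlap, but the treated arrays spread widely, and the difference of −1.28 ± 0.32 (SE) did not pass (adjusted p = 0.095). Its other 2 probe sets were dim and lay above 0. The initiator caspase Casp8 differed by −0.40 ± 0.14 at one probe set and by −0.61 ± 0.16 at the other (adjusted p = 0.259 and 0.104). Cflar, the decoy that restrains Casp8, differed by −0.35 ± 0.14 at its brighter probe set and by 0.46 ± 0.25 at the second, and neither passed.

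Downstream of the BCL2 family, the 13 tested genes of the mitochondrial pathway and the caspases gave 0 calls in limma, and 0 at an unadjusted p under 0.05. For this list and the next, the shares over all genes tested were 0.857% and 12.2%. Apaf1, the scaffold of the apoptosome, differed by −0.23 ± 0.18 (SE), the initiator Casp2 by 0.22 ± 0.13 and the nuclease Endog by −0.37 ± 0.26. At second probe sets Apaf1, too dim there to be tested, differed by 0.03 ± 0.34 and Casp2 by 0.03 ± 0.20. Among 9 other tested BCL2 family genes 0 passed, and the BH3-only gene Hrk was the 1 at an unadjusted p under 0.05, with a difference of 0.66 ± 0.26 (adjusted p = 0.311). Bnip3l and Bnip3, which mark mitochondria for autophagy, differed by 0.17 ± 0.08 and −0.14 ± 0.12, and the second probe set of Bnip3l by 0.05 ± 0.07.

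The 13 tested p53 pathway genes gave 0 calls in limma, and 2 at an unadjusted p under 0.05. Over all genes tested the shares were 0.857% and 12.2%. Cyclin G1 (Ccng1), a standard p53 target, was at 120 to 153 in controls and 164 to 204 with hydrogen water, without overlap, and its difference of 0.51 ± 0.12 (SE) missed the threshold (adjusted p = 0.075). The stress-induced Sesn2 differed by 0.94 ± 0.27 and by 0.77 ± 0.23 at its second probe set, and Phlda3 by −0.49 ± 0.27, and neither gene passed. The 15 tested NF-kappaB pathway genes and targets gave 0 calls, and 2 at an unadjusted p under 0.05, beside the same shares over all genes. Their median was −0.09. The adhesion molecule Vcam1 differed by 0.67 ± 0.19, the dendritic cell marker Cd83 by −0.46 ± 0.17 and the subunit Nfkb2 by −0.45 ± 0.20.

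The genes whose log2 signals ran closest to Bcl2a1 over the 8 arrays were sought among 9105 named genes, by the root mean square distance after each gene was centred on its own mean. The closest was choline kinase alpha (Chka), at a distance of 0.17, where the median gene was at 0.74. It gave 783, 862, 463 and 651 on control arrays and 312, 441, 300 and 257 with hydrogen water. As for Bcl2a1, control array 3 was the lowest control, treated array 2 the highest treated array and treated array 4 the lowest. The order of the other control arrays differed in part. Chka was picked for this likeness over the same arrays, so the shared order is no separate result. Next came the kinase Mapkapk3 at 0.28, the calcineurin inhibitor Rcan1 at 0.31, Atxn1l and the TEAD cofactor Vgll4 at 0.32 each, and the GTPase Irgm, also at 0.32. These 6 were picked for lying lower with hydrogen water as Bcl2a1 does, so their log2 differences, from −1.32 for Vgll4 to −0.68 for Atxn1l, are no separate result.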

How the data were processed

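Biotin-labelled liver RNA was read on Affymetrix arrays (labels' protocols). The authors deposited 1 intensity per probe set and array on a linear scale, made with MAS5, per the submitters' processing notes; no source used here gives its version or scaling target. Values were quantile-normalized and log2(signal + 2.05) was taken, the pseudocount being 10% of the median of all values, so folds of dim probe sets are understated. Arrays without a common scale made this normalization necessary, and it hides any shift of most transcripts in 1 direction. The 57 control probe sets were left out, and the 15521 of 31042 others with a mean at or above the median were tested with limma 3.58.1 in R 4.3.3 (lmFit, eBayes with trend, Benjamini-Hochberg over all tested), after a check on simulated data. SE come from this fit, or from the fit without the filter for dimmer probe sets, unless said to be over arrays.

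Names came from the platform annotation (20826 probe sets with 1 symbol, 436 with several, 9780 unnamed here; 20758 matched GRCr8 by Entrez ID). Listed genes are represented by their brightest probe set. Members and lists were chosen with earlier results of these data known. Named were all members, listed genes past the threshold, the 3 with the smallest p of each list, and the 6 nearest to Bcl2a1. Markers named, second probe sets and Birc5 were added after their values were seen. Alternatives were 5 other scalings, 2 pseudocounts, 2 filters, no trend, a replicate block, leaving out each array, and other gene sets for the balance.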

Additional observations from a re-analysis of the deposited data

How the results depend on the processing

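The balance of anti-apoptotic minus pro-apoptotic genes stayed below 0 in each alternative. Bcl2a1 was picked for its lower signal in this comparison, so that sign was partly set in advance and is no support. It was −0.76 in the report's setting, −0.43 without Bcl2a1, and, in settings chosen after seeing the data, −0.49 without Bcl2l11 and −0.16 without both. It was −0.91 with only the genes past the filter, −0.82 with no pseudocount and −0.63 with a pseudocount of 50% of the median. Leaving out 1 array gave −0.85 to −0.63. The difference of Bcl2a1 stayed below 0 as well, from −1.58 without normalization to −1.04 with a pseudocount of 50% of the median, and from −1.46 to −1.09 when 1 array was left out; under the filter that leaves out 75% it was not tested. The other 14 member probe sets gave 257 recomputed values, of which 8 moved by more than the spread between replicates and 17 had another sign. All 8 that moved came from the setting without normalization, at 8 of the 14 probe sets. Bcl2 changed sign most often, in 6 of 18. Signs held throughout at 5 probe sets, 1377759_at of Bid, 1382993_at of Bbc3 and all 3 of Bcl2l11. Those of Bcl2l11 did not share a direction. They held above 0 at 1388742_at and 1370787_at and below 0 at the dim 1387338_s_at.

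In the apoptosis lists 1 gene passed, against 3 without normalization (Xiap, Birc2 and Fas), 2 under median centring and 2 with the replicate block (Xiap and Birc2 each time), and 1 to 4 when 1 array was left out. Without control array 3, Xiap, Birc2, Sesn2 and Vcam1 passed, and without hydrogen water array 2, Xiap and Fas. Over all probe sets 127 passed, 54.3% of them higher, against 505 without normalization (4.16% higher) and 64 without a trend in the prior. Under median centring 29.4% were higher, and under spike-in scaling 70.8%. The replicate block gave 178, but same-numbered arrays of the groups did not deviate together (r from −0.10 to 0.19), so the numbers were not taken as pairs. The count was 56 to 196 when 1 array was left out: 59, 196 and 58 without control arrays 2, 3 and 4, and 61, 56 and 71 without hydrogen water arrays 1, 3 and 4. The cause of these shifts was not tested. Low signal limits Bcl2, Bak1 and the dim probe sets of Bcl2l1 and Bcl2l11, which cannot be set apart from background. It also limits the size of the Bcl2a1 difference, as the treated signals ran from 14.3 to 31.2, near the median of all signals.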

Other observations

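Around the start sites of the other BCL2 family genes, 8 genes in all had 1 or more windows in the RefSeq table, 11 windows together. Besides the matches in Bcl2a1 and Bcl2l11, Bad held the FOXO letters at -118 on the minus strand and the STAT letters at -151. Of the windows of Bcl2l1, 2 overlap and share 2 STAT matches. Mcl1 held the NF-kappaB letters at -99 on the minus strand. No binding data bear on these matches.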
